A study of Mus musculus with 18 samples.

Results

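The 8 genes described here are the mouse metallothioneins Mt1, Mt2, Mt3 and Mt4, the zinc-sensing transcription factor Mtf1, the zinc exporter Slc30a1 and the zinc importers Slc39a8 and Slc39a14. They were picked by symbol, with earlier results of these data known, from the 54532 genes of a count table made by mRNA sequencing of the mouse larynx. All 8 were among the 17537 genes with enough reads to be tested. The study compared the larynx of male C57BL6/J mice, 8 to 9 weeks old, after 3 exposures of 6 libraries each: room air (labelled TRC), smoke of 3R4F cigarettes, a standard research cigarette (labelled CSE), and aerosol of a JUUL Virginia tobacco e-cigarette (labelled JVT). The groups are called air, smoke and e-cigarette below, and the libraries carry the replicate numbers of their labels. Exposure lasted 1 hour a day on 5 days a week for 4 weeks in a whole-body chamber. The mice carried no transgene or allele that the labels name. Because the choice of these genes drew on the contrasts between the groups, the contrasts are given for them as a description, with fold changes and standard errors (SE) and without p-values.

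Metallothioneins are small, cysteine-rich proteins that bind zinc and copper and also toxic metals such as cadmium, which is present in tobacco smoke. Their genes are switched on by the MTF1 protein, which binds free zinc and then sits on short DNA motifs called metal response elements. Cadmium acts on the same switch by displacing zinc from other proteins. They also respond to glucocorticoids, to inflammatory signals and to oxidative stress. Zinc itself is moved across membranes by 2 families of carriers. The Slc30a (ZnT) proteins carry it out of the cytosol, and the Slc39a (ZIP) proteins carry it in.

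All 4 metallothionein genes lie on the plus strand of chromosome 8 within 43131 bases (GRCm38, coordinates as deposited). The order is Mt4 (ENSMUSG00000031757, 94137197 to 94139031), Mt3 (ENSMUSG00000031760, 94152607 to 94154146), Mt2 (ENSMUSG00000031762, 94172664 to 94173568) and Mt1 (ENSMUSG00000031765, 94179082 to 94180327), and 5513 bases separate Mt2 from Mt1. Mtf1 (ENSMUSG00000028890) is on chromosome 4 from 124802104 to 124849800, Slc30a1 (ENSMUSG00000037434) on chromosome 1 from 191906767 to 191913247 and Slc39a8 (ENSMUSG00000053897) on chromosome 3 from 135825279 to 135888572. Slc39a14 (ENSMUSG00000022094) is on the minus strand of chromosome 14 from 70303469 to 70351425. Each value below sums the reads over the exons of the gene.

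The promoters of Mt1, Mt2 and Slc30a1 are shown because these 3 genes are textbook targets of MTF1. In e-cigarette versus air Mt1 and Mt2 had similar fold changes, and that of Slc30a1 was smaller. The sequences are the RefSeq windows (GRCm38.p6, plus strand) from 250 bases before the annotated start, cut where the first transcript begins. Capitals mark matches to the metal response element core, searched as TGCACNC or TGCGCNC on both strands, so a match on the other strand reads GNGTGCA or GNGCGCA.
Mt1, chr8:94178839-94179081: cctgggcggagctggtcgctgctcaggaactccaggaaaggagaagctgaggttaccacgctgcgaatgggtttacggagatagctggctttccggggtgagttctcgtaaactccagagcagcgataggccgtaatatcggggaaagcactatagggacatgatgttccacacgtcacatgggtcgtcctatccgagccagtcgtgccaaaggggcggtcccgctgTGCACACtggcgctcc
Mt2, chr8:94172368-94172617: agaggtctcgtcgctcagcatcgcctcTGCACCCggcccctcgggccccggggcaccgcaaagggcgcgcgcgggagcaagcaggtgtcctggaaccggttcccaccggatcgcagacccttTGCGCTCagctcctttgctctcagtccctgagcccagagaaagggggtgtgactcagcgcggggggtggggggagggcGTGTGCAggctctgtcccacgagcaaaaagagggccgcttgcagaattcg
Slc30a1, chr1:191906531-191906766: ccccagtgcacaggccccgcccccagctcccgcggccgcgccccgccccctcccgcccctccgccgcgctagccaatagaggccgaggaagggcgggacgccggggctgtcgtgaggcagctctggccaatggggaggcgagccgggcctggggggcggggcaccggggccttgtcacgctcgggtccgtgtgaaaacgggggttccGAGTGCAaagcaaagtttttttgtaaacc
In the full 300-base windows, which also hold 50 bases after the start, Mt2 had 4 matches, Mt1 had 3, Slc30a1 had 2, and Mt3 and Mt4 had 1 each. The Mtf1 window had 0, and the windows of the 2 Slc39a8 start sites had 0 and 1. Over all 32851 RefSeq windows of this length, 25.7% held at least 1 match, 7.11% at least 2, 1.97% at least 3 and 0.517% at least 4. Slc39a14 was not looked up, as the table has no entry for it. The antioxidant response element core, searched as TGACNNNGC on both strands, was found in 12.4% of all windows. It occurred once in each of the windows of Mt2 and Slc30a1 and in 1 of the 2 windows of Slc39a8. In Mt2 this match was TGACTCAGC, 79 to 71 bases before the RefSeq start, with metal response elements of the printed sequence on both sides. The counts hold for these windows alone, and bases outside them were not searched. A gene without a match in its window, such as Mt1 for the antioxidant element, may hold one outside it. A match describes letters only and says nothing of binding in the larynx.

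Mt1, the main ubiquitous metallothionein, had a lower mean after both exposures, and a lower mean after e-cigarette aerosol than after smoke. The smoke libraries overlapped with those of both other groups. The change in smoke versus air was not called by edgeR, and the call in smoke versus e-cigarette was lost with tissue scores as covariates. Levels are given in CPM, counts per 1e+06 reads of a library after scaling for library composition. In air the lowest, median and highest library held 221, 272 and 376 CPM of Mt1, in smoke 88.5, 185 and 234, and in e-cigarette 58.1, 76.9 and 121. The 6 e-cigarette libraries all lay below the 6 air libraries, and 5 of 6 smoke libraries did. Smoke split into 3 libraries near the low end of air (replicates 1, 2 and 3, 217 to 234 CPM) and 3 lower ones (replicates 4, 5 and 6, 88.5 to 153 CPM). Replicate 5 of smoke, at 88.5 CPM, lay inside the e-cigarette range. The mean was 288 ± 59.5 CPM in air (SD, n = 6), 176 ± 57.2 in smoke and 84.7 ± 22.4 in e-cigarette. The log2 fold change was -0.71 (SE 0.22) in smoke versus air, -1.77 (SE 0.22) in e-cigarette versus air, or 3.40-fold lower, and 1.05 (SE 0.22) in smoke versus e-cigarette.

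Mt2, the neighbour of Mt1, followed the same order at a far lower count. It held 2.98, 3.25 and 6.54 CPM in the lowest, median and highest air library, 1.28, 2.06 and 4.21 in smoke, and 0.750, 1.16 and 1.46 in e-cigarette. As for Mt1, every e-cigarette library lay below every air library, and 5 of 6 smoke libraries lay below all air libraries. The means were 3.82 ± 1.38 CPM in air, 2.35 ± 1.02 in smoke and 1.11 ± 0.314 in e-cigarette. The log2 fold changes were -0.70 (SE 0.27) in smoke versus air, -1.77 (SE 0.28) in e-cigarette versus air, or 3.42-fold lower, and 1.08 (SE 0.29) in smoke versus e-cigarette. The ratio of Mt1 to Mt2 in a library had a median of 81.7 in air, 79.0 in smoke and 77.0 in e-cigarette, with overlapping ranges of 52.6 to 95.7, of 41.3 to 131 and of 51.6 to 100.

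The Mt2 count is uncertain. In the GENCODE M21 annotation, 432 of its 588 exonic bases (73.5%) lie under the antisense gene Gm45774 (ENSMUSG00000110588, chromosome 8, 94170748 to 94173412, minus strand), and the library kit does not mark strand. Where counting ignores strand, reads in the shared bases cannot be assigned to either gene, and such reads may have been dropped. The sources used here do not state how such reads were treated, so the level of Mt2 against Mt1 is not a measure of how much of each was transcribed. Mt2 itself had 50 to 102 reads per air library, 26 to 77 per smoke library and 13 to 27 per e-cigarette library. Gm45774 had 3 to 61 reads per air library, 10 to 17 per smoke library and 0 to 6 per e-cigarette library. With the reads of both genes added together, a choice made after the values were seen, the log2 fold changes were -0.72, -1.97 and 1.24 in the same 3 comparisons. Any dropped reads would be in neither count, so this sum cannot recover them or settle the level of Mt2.

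Mt3, a metallothionein best known from neurons, was scarce and uneven. It held 1.05, 4.13 and 11.8 CPM in the lowest, median and highest air library, 1.26, 2.19 and 4.97 in smoke, and 0.981, 1.53 and 2.12 in e-cigarette. Only 1 of 6 e-cigarette libraries lay below all air libraries, since replicate 4 of air had 1.05 CPM. The means were 5.16 ± 3.75 CPM in air, 2.74 ± 1.36 in smoke and 1.52 ± 0.376 in e-cigarette. The log2 fold changes were -0.90 (SE 0.41) in smoke versus air, -1.75 (SE 0.43) in e-cigarette versus air and 0.85 (SE 0.43) in smoke versus e-cigarette. These depended on the fit: voom gave -0.05 (SE 0.42) in smoke versus air and -0.93 (SE 0.50) in e-cigarette versus air, and the fit without replicates 4, 5 and 6 of air gave -1.42 and -2.26.

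Mt4, the metallothionein of stratified squamous epithelium, varied widely within each group. It held 9.26, 44.4 and 114 CPM in the lowest, median and highest air library, 7.76, 55.0 and 104 in smoke, and 22.3, 78.2 and 144 in e-cigarette. The 3 groups overlapped over most of their ranges. The means were 51.5 ± 39.5 CPM in air, 49.8 ± 37.1 in smoke and 81.3 ± 51.5 in e-cigarette, and the log2 fold changes were -0.05 (SE 0.69), 0.66 (SE 0.69) and, for smoke versus e-cigarette, -0.71 (SE 0.70). The first 2 became 1.19 (SE 0.88) and 1.91 (SE 0.91) without replicates 4, 5 and 6 of air, and 0.81 (SE 0.92) and 2.50 (SE 1.29) with 4 tissue scores as covariates, and were not called. The 3 air libraries left out held the most Mt4 of their group, up to 114 CPM, against 9.26 to 37.8. The summed level of 12 squamous epithelium genes also ranged widely, reaching from 3858 to 10791 CPM in air libraries, 3718 to 22239 CPM in smoke libraries and 7808 to 24876 CPM in e-cigarette libraries. Its first gene, the basal keratin Krt5, ran from 319 to 928 CPM in air and from 500 to 928 in e-cigarette, and 0 of the 12 genes were called in any comparison by edgeR. At an unadjusted p under 0.05 the counts were 1, 3 and 1 in smoke versus air, e-cigarette versus air and smoke versus e-cigarette. DESeq2 called 0, 1 and 0 of them and voom 0, 0 and 2. The part of squamous tissue content in the Mt4 spread was not tested.

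**Figure D1:**
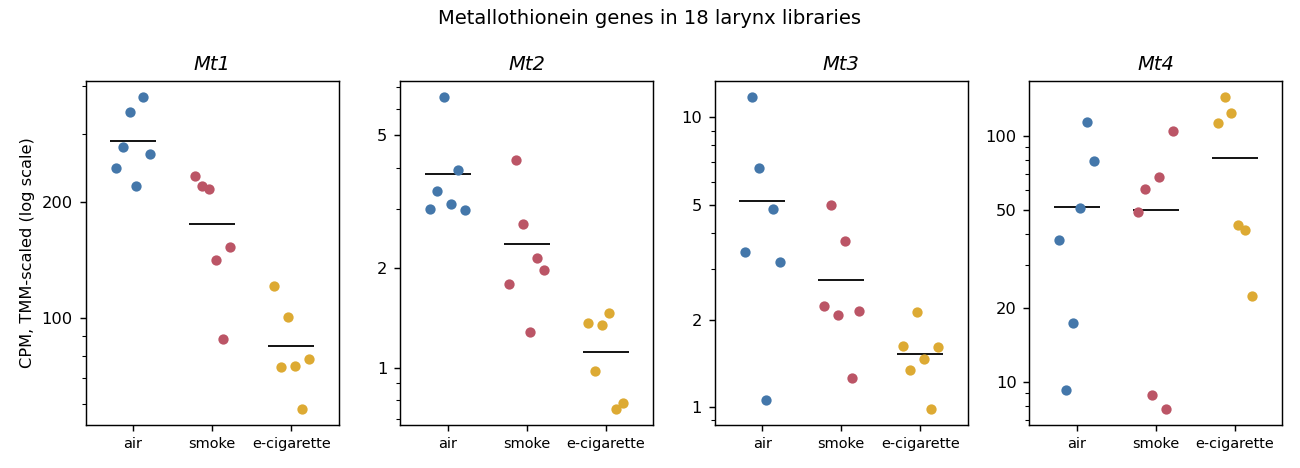
Levels of the 4 metallothionein genes in CPM (log axis) by exposure group, 1 point per library and a line at the group mean. For Mt1 and Mt2 all 6 e-cigarette points lie below all 6 air points, for Mt3 the groups overlap, and for Mt4 they overlap over most of the range.

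Compared per kilobase of exonic bases, pooled over the transcripts of a gene, Mt1 was the most abundant of the 8 in air at 231 ± 47.7 CPM per kb (SD, n = 6). Mt4 came next at 129 ± 99.2, and the ranges of these 2 genes overlapped. The other 6 formed a low group: Mt2 at 6.50 ± 2.34, Slc39a14 at 6.13 ± 0.186, Slc30a1 at 5.77 ± 0.824, Mt3 at 4.84 ± 3.52, Slc39a8 at 3.12 ± 0.428 and Mtf1 at 2.72 ± 0.412. Within that group the neighbours in this order did not differ beyond their spread. Over only the 156 exonic bases that Mt2 does not share with Gm45774, Mt2 would stand at 24.5 ± 8.83 CPM per kb. After e-cigarette aerosol Mt4 stood first at 204 ± 129 CPM per kb and Mt1 second at 68.0 ± 18.0, again with wide spread in Mt4. The order of Mt1 and Mt4 depends on the lengths used. The 1246 exonic bases of Mt1 fill the whole gene from start to end. Its spliced transcripts may be shorter, and its values per kb higher. Mt4 was divided by 398 bases.

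Mtf1, the transcription factor that reads free zinc and drives the metallothionein genes, had similar levels in the 3 groups. The lowest, median and highest libraries held 20.8, 23.3 and 30.1 CPM in air, 21.7, 22.6 and 30.2 in smoke and 23.2, 25.1 and 29.3 in e-cigarette. All groups overlapped. The log2 fold changes were -0.01, 0.09 and, for smoke versus e-cigarette, -0.10 (SE 0.11 for each). These counts measure the Mtf1 transcript and not the activity of its protein.

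Slc30a1 (ZnT1), which exports zinc through the plasma membrane and is itself an MTF1 target, had small fold changes. It held 27.3, 28.5 and 38.5 CPM in the lowest, median and highest air library, 25.2, 28.2 and 30.0 in smoke and 21.5, 27.5 and 32.0 in e-cigarette. The groups overlapped, and the highest library of the 18 was replicate 3 of air. The log2 fold changes were -0.11 (SE 0.11) in smoke versus air, -0.15 (SE 0.11) in e-cigarette versus air and 0.03 (SE 0.11) in smoke versus e-cigarette, the last turning to -0.15 without replicates 2, 4, 5 and 6 of e-cigarette. Slc30a1 and Mt1 both held matches to the element core in their promoter windows, where 25.7% of all windows held at least 1. Their log2 fold changes in e-cigarette versus air were -0.15 and -1.77, and a part of the element in either was not tested.

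Slc39a8 (ZIP8), an importer of zinc that also carries manganese and cadmium, had somewhat higher values after e-cigarette aerosol without a separation of the groups. It held 20.1, 24.2 and 28.6 CPM in the lowest, median and highest air library, 20.5, 25.6 and 33.4 in smoke and 21.7, 28.8 and 37.7 in e-cigarette. The log2 fold changes were 0.13 (SE 0.14), 0.29 (SE 0.14) and, for smoke versus e-cigarette, -0.17 (SE 0.14). Without replicates 2, 4, 5 and 6 of e-cigarette the last 2 were -0.04 and 0.14, so their signs turned.

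Slc39a14 (ZIP14), an importer of zinc, manganese and iron, was the only one of the 8 whose e-cigarette libraries lay apart from both other groups. In air the libraries were tightly grouped, with 61.3, 65.0 and 67.3 CPM in the lowest, median and highest. In smoke they held 46.0, 58.3 and 66.7 CPM, and in e-cigarette 21.6, 27.96 and 38.1. Every e-cigarette library lay below every library of air and of smoke, and 5 of 6 smoke libraries lay below all air libraries. The means were 64.7 ± 1.96 CPM in air, 56.7 ± 7.47 in smoke and 28.8 ± 5.96 in e-cigarette. The log2 fold change was -0.19 (SE 0.11) in smoke versus air, -1.17 (SE 0.12) in e-cigarette versus air, or 2.25-fold lower, and 0.98 (SE 0.12) in smoke versus e-cigarette.

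**Figure D2:**
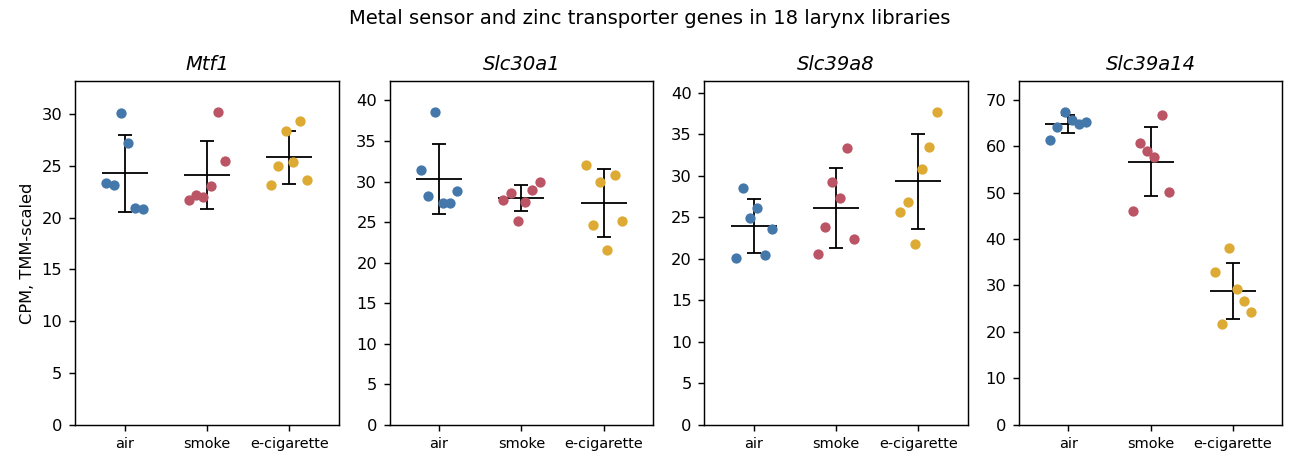
Levels of Mtf1, Slc30a1, Slc39a8 and Slc39a14 in CPM by exposure group, 1 point per library with the group mean and SD. The 6 e-cigarette points of Slc39a14 (21.6 to 38.1 CPM) lie below all air and smoke points, and the groups overlap for the other 3 genes.

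Counted over the comparisons, a gene is "called" where edgeR's quasi-likelihood test gave a Benjamini-Hochberg adjusted p below 0.05 over all 17537 tested genes. In smoke versus air 0 of the 8 genes were called, where 1.59% of all tested genes were called (0.975% higher and 0.616% lower). At an unadjusted p under 0.05 the count was 3, DESeq2 called 1 (Mt1) and voom 0. Of the 8 log2 fold changes 7 were negative, with a median of -0.15, against 0.01 over all tested genes. All 8 genes overlapped between smoke and air, where 1.54% of tested genes did not overlap with smoke higher and 0.890% with smoke lower.

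In e-cigarette versus air 4 of the 8 genes were called, all lower (Mt1, Mt2, Mt3 and Slc39a14), where 25.1% of all tested genes were called, 12.1% higher and 13.0% lower. The median was -0.66, against 0.01 over all tested genes. In 3 of the 8 genes (Mt1, Mt2 and Slc39a14) the groups did not overlap with e-cigarette lower, where 6.00% of tested genes did so and 4.50% did with e-cigarette higher. In smoke versus e-cigarette 3 of the 8 were called, all higher in smoke (Mt1, Mt2 and Slc39a14), where 16.5% of tested genes were called, 10.4% higher and 6.10% lower. The median was 0.44, against -0.01 over all tested genes. Slc39a14 alone did not overlap in that comparison, where 6.65% of tested genes did so with smoke higher and 2.72% with smoke lower. Since the genes were chosen with these contrasts known, nothing is read from these counts. The 2 contrasts against air share the air libraries.

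**Figure D3:**
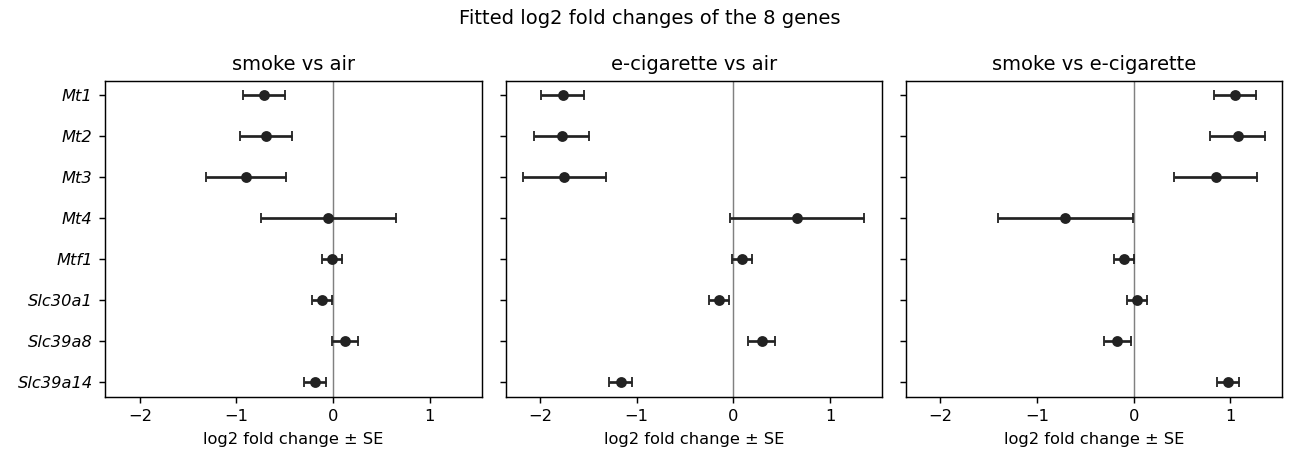
Log2 fold changes of the 8 genes in smoke versus air, e-cigarette versus air and smoke versus e-cigarette, with bars of 1 SE. Mt1, Mt2 and Mt3 lie between -1.75 and -1.77 and Slc39a14 at -1.17 in e-cigarette versus air, while Mtf1, Slc30a1 and Slc39a8 lie within 0.29 of 0 in all 3 comparisons.

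The libraries also differed in which tissues they held. Each was a whole larynx, so fewer cells of a type and less RNA per cell cannot be told apart. The summed level of 12 thyroid follicle genes, led by Tg (thyroglobulin, the precursor of thyroid hormone), ranged in air from 57213 to 98979 CPM, in smoke from 58178 to 95664 CPM and in the e-cigarette group from 145 to 29333 CPM. In e-cigarette versus air 9 of these 12 genes fell and 1 rose, where 13.0% of all tested genes fell and 12.1% rose. The median log2 fold change of the 12 was -2.73. In smoke versus air 0 of them were called by edgeR, by DESeq2, by voom or at an unadjusted p under 0.05. None of the 12 was at 0 throughout a group. Tg was highest among the e-cigarette libraries in replicates 1 and 3, at 26496 and 28860 CPM, and those 2 also held the most Mt1 of their group, at 121 and 101 CPM against 58.1 to 78.6 in the other 4. The same 2 libraries held the most Slc39a14 of the e-cigarette group, at 32.9 and 38.1 CPM. In smoke the order differed, as replicate 5 had 94379 CPM of Tg beside the lowest Mt1 of its group.

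With the 4 e-cigarette libraries lowest in thyroid genes left out (replicates 2, 4, 5 and 6), the log2 fold changes in e-cigarette versus air were -1.40 for Mt1, -1.51 for Mt2, -1.48 for Mt3 and -0.89 for Slc39a14, and Mt1 and Slc39a14 were still called. With a thyroid score as covariate over all libraries they were -1.36, -1.81, -1.15 and -0.91 (SE 0.36, 0.50, 0.74 and 0.19). Only Slc39a14 was called there. With scores for thyroid, muscle, cartilage and fat together the fold changes were -1.28, -1.71, -1.70 and -0.76 (SE 0.36, 0.52, 0.86 and 0.18). There 0 were called. The main fit had narrower SE (0.22, 0.28, 0.43 and 0.12), so a lost call need not mean a smaller fold change. Mt2 lost its call with the thyroid score although its fold change was not smaller than the -1.77 of the main fit. In smoke versus e-cigarette without the same 4 libraries, Mt1 stood at 0.66, Mt2 at 0.79 and Slc39a14 at 0.67, and only Slc39a14 was called. With the thyroid score they were 0.68, 1.11 and 0.74 (SE 0.33, 0.48 and 0.18), with 0 called. With the 4 scores they were 0.53, 0.54 and 0.45 (SE 0.38, 0.58 and 0.20), with 0 called. The sign of Mt1, Mt2, Mt3 and Slc39a14 in e-cigarette versus air was negative in all of these fits. No e-cigarette library reached the thyroid level of any air library, so low thyroid content and the e-cigarette exposure cannot be told apart.

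**Figure D4:**
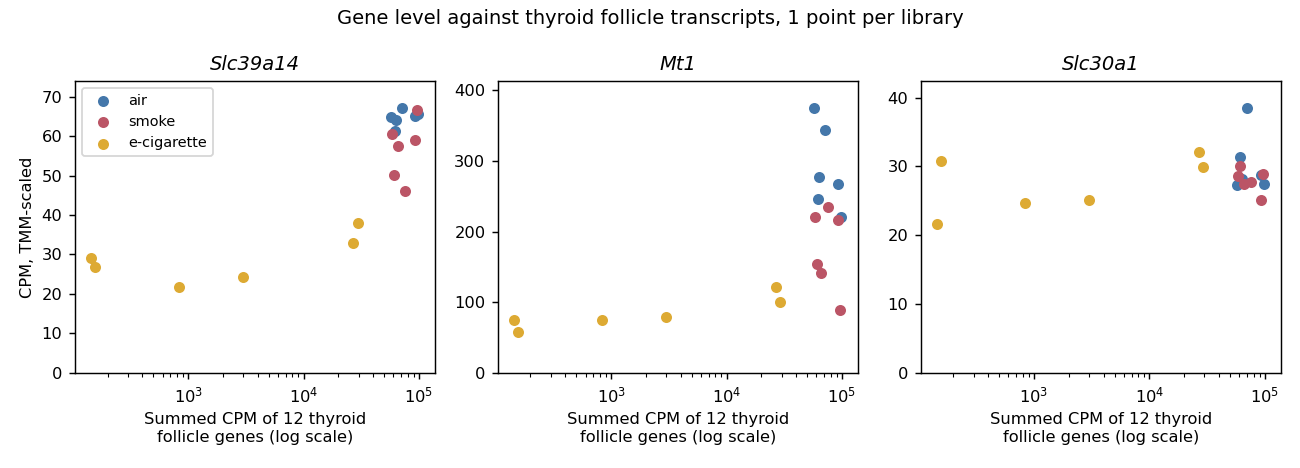
Levels of Slc39a14, Mt1 and Slc30a1 in CPM against the summed level of 12 thyroid follicle genes (CPM), 1 point per library, marked by exposure group. The e-cigarette libraries hold at most 29333 CPM of thyroid genes, below the 57213 CPM or more of air, and lie lowest for Slc39a14 and, but for 1 smoke library, for Mt1.

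Other tissue and handling markers moved as well. Of all tested genes, 12.1% rose and 13.0% fell in e-cigarette versus air, and 0.975% rose and 0.616% fell in smoke versus air. In smoke versus e-cigarette 6.10% of tested genes were lower in smoke. All 5 parathyroid genes fell in e-cigarette versus air by edgeR, with a median log2 fold change of -7.72. DESeq2 called 5 of them and voom 1. Pth, the parathyroid hormone gene that defines them, ran from 2.34 to 3742 CPM in air, from 0.0563 to 2131 in smoke and from 0 to 6.03 in e-cigarette. Replicate 4 of air, with 2.34 CPM of Pth, was also the air library lowest in Mt3, at 1.05 CPM. Replicates 2 and 3 of air, highest in Pth at 3581 and 3742 CPM, were also highest in Mt3, at 11.8 and 6.67 CPM. In smoke replicates 2 and 4, highest in Pth at 2131 and 1056 CPM, held the most Mt3, at 4.97 and 3.75 CPM. Replicate 5 of smoke went the other way, with 732 CPM of Pth beside the lowest Mt3 of its group, at 1.26 CPM. Of 12 fast skeletal muscle genes 8 rose in e-cigarette versus air. Of 11 tested glandular acinus genes 6 rose in e-cigarette versus air and 3 in smoke versus air. Their summed level set replicates 4, 5 and 6 of air apart, at 7076, 1648 and 2603 CPM against 22363 to 30427 in the other 3, and these are the air libraries with the most Mt4. The lipase gene Lipf, which defines them, ran from 623 to 21291 CPM in air, from 10589 to 21207 in smoke libraries and from 11023 to 42502 in e-cigarette libraries. Of 11 ciliated cell genes 3 fell in smoke versus air, and 9 were lower in smoke than in e-cigarette. Among 10 heat shock genes 7 fell in smoke versus air and 5 in e-cigarette versus air, and among 12 immediate early genes 3 and 4 fell, genes that respond within minutes to stress and to tissue handling. DESeq2 called 9 and 8 of the immediate early genes in these 2 comparisons, and voom 4 and 1. Summed, the immediate early genes held 418 to 1224 CPM in the air group, 288 to 416 CPM after smoke and 363 to 509 CPM after e-cigarette aerosol, with replicates 2 and 3 of air highest at 1224 and 1206. The part of these tissues and responses in the metallothionein values was not tested.

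Across the 18 libraries, with the mean of each group removed, the 8 genes did not move as 1 block. All 28 pairs were correlated on log2 CPM, and p-values come from 100000 permutations within groups (two-sided permutation test), adjusted over the 28. Mt1 and Mt2 gave a Pearson r of 0.50 (p = 0.0621, adjusted 0.276) and a Spearman rho of 0.50 (p = 0.0552, adjusted 0.309), which did not pass the adjustment. Their r was 0.60 without the 2 libraries farthest from the median of Mt1, and 0.70 within air, 0.38 within smoke and 0.67 within e-cigarette. The strongest pair was Mt4 and Slc39a8, with r = -0.78 (adjusted permutation p = 0.0162) and rho = -0.70 (adjusted permutation p = 0.0913). Without the 2 farthest libraries it was -0.69, and within air, smoke and e-cigarette -0.68, -0.79 and -0.91. It was the only 1 of 28 pairs past the adjusted threshold by r, and 0 passed by both measures. The points share their library scaling and tissue content.

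The genes most like each of the 8 were named from 14104 other protein-coding genes by Pearson r of log2 CPM with group means removed, over 18 libraries, as a description. For Mt4 they were Capns2 and Fam25c (r = 0.97 each), Ptgr1, Hsd17b2 and Fabp5 (all about 0.95). For Slc39a14 they included Col4a6 (a basement membrane collagen, r = 0.89), Slc2a6, Slco2a1 (both 0.87) and Chdh (0.84). For Mt3 they were Pkib (0.86), Fbxo2 (0.84), Syn2 (0.83), Cryba2 (0.81) and Fam222a (0.79). For Mt1 they were Tomm22 (0.84), Cystm1 (0.83), Pfdn4, Timm8b and Pop4 (0.82 each), with Tomm22 and Timm8b both parts of mitochondrial protein import. For Mt2, whose counts were few, the highest r values were lower: Larp7 (0.75), Nfx1 (0.74), Nln (0.73), Tnfaip6 and Ptpn2 (0.72 each). For Mtf1 the first was Fam20b (0.88), followed by Tollip, Ubn1, Snrk and N4bp1. For Slc30a1 the first were Rhof and Rgcc (0.87 each), followed by Stx11, Nab1 and Zfp276. For Slc39a8 the first was Lclat1 (0.83), followed by Slc35a3, Thap2, Ccdc129 and Fgf6.

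Of the remaining zinc exporters, 2 moved in opposite directions after e-cigarette aerosol. Of 9 other Slc30a genes 6 were tested (Slc30a3, Slc30a8 and Slc30a10 had too few reads). In smoke versus air 0 of 6 were called by edgeR, by DESeq2 or by voom, and 0 at an unadjusted p under 0.05. In e-cigarette versus air Slc30a5, which loads zinc into the secretory pathway, fell from 80.7 ± 7.09 to 59.9 ± 4.90 CPM (log2 fold change -0.43, SE 0.08, edgeR adjusted p = 0.000427), with all 6 e-cigarette libraries below all air libraries. Its call was lost with the thyroid score (-0.30), with the 4 scores (-0.21) and without replicates 2, 4, 5 and 6 of e-cigarette (-0.32). Slc30a7, which serves the same compartment, rose from 43.5 ± 5.86 to 51.6 ± 3.27 CPM (0.25, SE 0.09, edgeR adjusted p = 0.0436), a call lost in 13 of 18 fits that left out a library. Between the exposures Slc30a5 was higher in smoke (0.27, SE 0.08, edgeR adjusted p = 0.0209) and Slc30a7 lower (-0.32, SE 0.09, edgeR adjusted p = 0.0161). The Slc30a5 call there was lost without replicate 3 of smoke and without replicates 2 or 4 of e-cigarette. Both calls between the exposures were lost with the thyroid score, with the 4 scores and without replicates 2, 4, 5 and 6 of e-cigarette. In these fits Slc30a5 stood at 0.15, -0.0031 and 0.14, and Slc30a7 at -0.19, -0.33 and -0.32. The SE of Slc30a7 there were 0.14, 0.17 and 0.13, against 0.09 in the main fit. Under the thyroid score, the 4 scores and without the 4 e-cigarette libraries, 0 of the 6 exporters were called in e-cigarette versus air. Their median there was -0.03, against 0.01 over all tested genes, of which 25.1% were called.

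The other zinc importers changed in both directions. Of 12 other Slc39a genes 10 were tested (Slc39a5 and Slc39a12 were not). Slc39a11, a Golgi zinc carrier, was the only one called in smoke versus air, where it rose from 25.5 ± 6.40 to 39.5 ± 6.83 CPM (0.63, SE 0.15, edgeR adjusted p = 0.0444), a call lost in 14 of the 18 fits without a library. It rose also in e-cigarette versus air, to 42.0 ± 6.75 CPM (0.72, SE 0.15, edgeR adjusted p = 0.00181). There Slc39a9 rose as well (0.28, SE 0.08, edgeR adjusted p = 0.0184), a call lost without replicate 4 or 5 of e-cigarette, and so did Slc39a6 (0.51, SE 0.17, edgeR adjusted p = 0.0364), which was named after its value was seen, to complete the count. Slc39a10, a plasma membrane importer, fell from 57.2 ± 17.2 to 31.1 ± 7.08 CPM (-0.88, SE 0.17, edgeR adjusted p = 0.000908), and it was higher in smoke than in e-cigarette in 6 of 6 libraries (0.74, SE 0.17, edgeR adjusted p = 0.00612). Slc39a3 was also higher in smoke than in e-cigarette (0.31, SE 0.09, edgeR adjusted p = 0.0268), a call lost without any of replicates 1, 5 and 6 of either group. The calls of Slc39a10 and Slc39a3 between the exposures were lost with the thyroid score (0.49 and 0.38) and with the 4 scores (0.32 and 0.14). They were also lost without replicates 2, 4, 5 and 6 of e-cigarette (0.40 and 0.28). Against air, 0 of the 10 importers were called after e-cigarette aerosol with the thyroid score, with the 4 scores or without the 4 e-cigarette libraries lowest in thyroid genes. In these fits Slc39a11 stood at 0.76, 0.44 and 0.60, Slc39a9 at 0.18, 0.12 and 0.16, and Slc39a10 at -0.61, -0.12 and -0.56. The main fit called 4 of the 10, where 25.1% of all tested genes were called, and their median was -0.02.

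**Figure D5:**
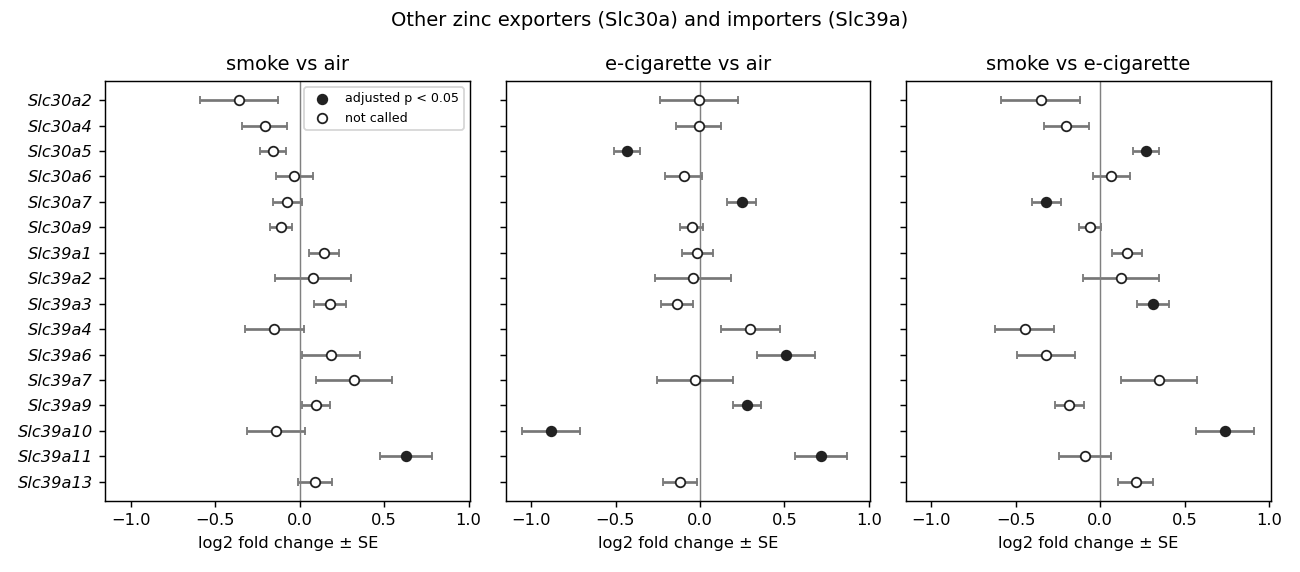
Log2 fold changes of the 16 other tested zinc transporter genes in the 3 comparisons, filled where the edgeR adjusted p was below 0.05. In e-cigarette versus air Slc30a5 (-0.43) and Slc39a10 (-0.88) are filled below 0 and Slc30a7, Slc39a6, Slc39a9 and Slc39a11 (0.25 to 0.72) above 0.

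Among 6 further genes known as targets of MTF1, 3 fell in e-cigarette versus air and 0 rose, where 13.0% of all tested genes fell and 25.1% were called. They were Pgf, Csrp1 and Slc39a10, the last shared with the importers. The list does not state whether MTF1 raises or lowers each gene, and MTF1 activity was not tested. Pgf, a growth factor of the VEGF family, fell from 20.4 ± 3.59 to 5.41 ± 1.90 CPM (-1.91, SE 0.18, edgeR adjusted p = 2.11e-06). Csrp1, a LIM domain protein of smooth muscle, fell from 376 ± 80.6 to 182 ± 35.4 CPM (-1.04, SE 0.14, edgeR adjusted p = 2.36e-05). In both genes all 6 e-cigarette libraries lay below all air libraries. In smoke the means were 13.0 ± 1.38 CPM for Pgf and 319 ± 29.4 for Csrp1. All 6 smoke libraries lay above all e-cigarette libraries in both (1.27 and 0.81, edgeR adjusted p = 0.000124 and 0.000503). Both calls between the exposures were lost with the thyroid score (0.82 and 0.68) and with the 4 scores (0.48 and 0.36). They were also lost without replicates 2, 4, 5 and 6 of e-cigarette (0.73 and 0.60). In smoke versus air 0 of the 6 were called by edgeR, 2 at an unadjusted p under 0.05, 2 by DESeq2 and 1 by voom, and 0 to 2 by edgeR under the other settings. There Pgf stood at -0.64 (SE 0.17, edgeR adjusted p = 0.0592) with all 6 smoke libraries below all air libraries. Gclc, Selenow and Ndrg1 were not called in any comparison. The median of the 6 in e-cigarette versus air was -0.59. Without the 4 e-cigarette libraries lowest in thyroid genes, Pgf stood at -1.40 and Csrp1 at -0.86, both still called, and Slc39a10 at -0.56, not called. With the thyroid score Pgf alone was called, at -1.43 beside -0.91 for Csrp1, and with the 4 scores again Pgf alone, at -1.39 beside -0.88.

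Iron handling genes, of which Slc39a14 could be counted one, changed in both directions after e-cigarette aerosol. Of 12 genes 3 rose and 2 fell in e-cigarette versus air, where 25.1% of all tested genes were called. Tfrc, the transferrin receptor that takes iron into cells, rose from 74.8 ± 17.1 to 118 ± 13.5 CPM (0.65, SE 0.12, edgeR adjusted p = 0.000503). Slc40a1, the iron exporter ferroportin, and Steap3, an iron reductase, rose by less, and both were named after their values were seen to complete the count. Heph, a ferroxidase, fell from 15.1 ± 3.26 to 6.83 ± 2.66 CPM (-1.14, SE 0.22, edgeR adjusted p = 0.000847), and Ftl1, the light chain of the iron store ferritin, from 357 ± 39.3 to 255 ± 25.7 CPM (-0.48, SE 0.11, edgeR adjusted p = 0.00243). Between the exposures Heph, Ftl1 and Aco1 were higher and Tfrc lower in smoke. The calls of Heph, Aco1 and Tfrc there were lost with the thyroid score (0.54, 0.33 and -0.58) and with the 4 scores (0.01, 0.12 and -0.47). They were also lost without replicates 2, 4, 5 and 6 of e-cigarette (0.49, 0.30 and -0.57). For Tfrc the main fit gave -0.56 (SE 0.12), and the SE in these 3 fits were 0.19, 0.15 and 0.18. Without the 4 e-cigarette libraries lowest in thyroid genes 0 of the 12 iron genes passed the test against air, where Tfrc stood at 0.64 (edgeR adjusted p = 0.0553), Ftl1 at -0.61 (edgeR adjusted p = 0.0502) and Heph at -0.61. With the thyroid score 0 were called, with Tfrc at 0.67, Ftl1 at -0.61 and Heph at -0.59. With the 4 scores Tfrc (0.90, edgeR adjusted p = 0.0254) and Ftl1 (-0.82, edgeR adjusted p = 0.0426) were called and Heph stood at -0.05. In smoke versus air 0 of 12 were called by edgeR, 4 at an unadjusted p under 0.05, and 1 each by DESeq2 and voom. Of 10 copper handling genes 1 fell in e-cigarette versus air, the superoxide dismutase Sod1 (-0.49, SE 0.14, edgeR adjusted p = 0.0138). Its call was lost with the thyroid score (-0.29), with the 4 scores (-0.17), without the 4 e-cigarette libraries (-0.39) and without replicates 4, 5 and 6 of air (-0.38).

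Lists for the other inputs to metallothionein genes had 1 of 11, 3 of 11 and 1 of 12 genes called in e-cigarette versus air, where 25.1% of all tested genes were called. Of 11 glucocorticoid-induced genes 1 fell in e-cigarette versus air, Errfi1 (-1.07, SE 0.37, edgeR adjusted p = 0.0464), which stood at -0.40 without replicate 3 of air and lost its call in 14 of the 18 fits without a library. Sgk1 was lower in smoke than in e-cigarette in 6 of 6 libraries (-0.48, SE 0.13, edgeR adjusted p = 0.0169). Its call was lost with the thyroid score (-0.36), with the 4 scores (-0.15) and without replicates 2, 4, 5 and 6 of e-cigarette (-0.30). Of 11 genes of the STAT3 and acute phase list 3 fell in e-cigarette versus air: Il1r1 (-0.76, SE 0.15, edgeR adjusted p = 0.000953), Bcl3 (-1.15) and Socs3 (-0.94), the last 2 standing at -0.57 and -0.48 without replicate 3 of air and losing their calls in 4 and 7 of those fits. Of 12 genes of the NRF2 response to oxidative stress 1 rose in e-cigarette versus air, Gstm1 (0.34, SE 0.12, edgeR adjusted p = 0.0495), a call lost in 15 of 18 fits without a library, in a family of near-identical genes. In smoke versus air 0 genes of these 3 lists were called by edgeR, against 3, 3 and 2 at an unadjusted p under 0.05, 1, 2 and 2 by DESeq2 and 0 by voom. Without the 4 e-cigarette libraries lowest in thyroid genes, 0 genes of these 3 lists passed edgeR's test against air. The fold changes there were -1.37 for Bcl3, -1.05 for Socs3, -1.05 for Errfi1, -0.60 for Il1r1 and 0.18 for Gstm1, so those of Bcl3, Socs3 and Errfi1 were about as large as with all libraries, with wider SE (0.61, 0.50 and 0.65).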

How the data were processed

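Whole-larynx mRNA was sequenced from 18 libraries, 6 per group. The deposited values are raw counts, whole numbers of reads per gene and library, which the authors made on GRCm38 (mm10) with the aligner STAR and with featureCounts 1.5.0-p3, per the submitters' processing notes. The STAR version, strand setting and annotation release were not given in the sources used here. Total counts (units of 1e+06) ranged from 15.6 to 17.1 for air, 15.9 to 20.3 for smoke and 16.7 to 22.5 for e-cigarette libraries, and a gene with few reads is measured with wide counting error.

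Genes were kept with filterByExpr (minimum count 10, minimum total 15), and the 3 groups were fitted together in edgeR 4.0.16 (TMM scaling, robust quasi-likelihood, R 4.3.3) without covariates. P-values were Benjamini-Hochberg adjusted over all tested genes, and SE derives from the F statistic. The edgeR step was tested on simulated data. Correlations and likeness used log2(CPM + 1). Whether a library stands for 1 animal is not in the labels, so the p-values cover the spread of these samples, which may be technical.

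The 8 genes and all lists were chosen with earlier results of these data known. The text names, beside the 8, up to 3 called genes with the smallest p per pathway list and comparison, and the 5 genes most correlated with each of the 8 (1 of them is not reported here); composition lists appear as counts, sums and their first gene. Alternatives were DESeq2 1.42.0, voom (limma 3.58.1), other scalings and filters, 2-group fits, a replicate block, composition covariates and leaving out libraries. List counts under these alternatives, the r of Mt1 and Mt2 without 2 libraries and the sum of Mt2 and Gm45774 were added after seeing the data. Promoters are from RefSeq (GRCm38.p6), and 7 of the 8 genes matched.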

Additional observations from a re-analysis of the deposited data

Results flagged for a closer look

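Within groups of 6, a library was singled out where its gap to the nearest other library was too large a share of the group's range by Dixon's test at the 95% level. Of 24 groups (8 genes in 3 groups) 2 were so marked, and chance alone marks about 1 in 20. Both were replicate 3 of air. Its Mt2 level was 6.54 CPM, where the other air libraries held 2.98 to 3.93. Its Slc30a1 level was 38.5 CPM, where the others held 27.3 to 31.4. The same library was among the highest air libraries in the summed immediate early genes (1206 CPM) and the highest in the summed heat shock genes (5544 CPM); their part in the 2 values was not tested.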

How the results depend on the processing

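Counts over all genes depended on the fit. In smoke versus air, 279 genes called became 184 without a filter, 970 with DESeq2, 1120 with voom, 109 with only those groups fitted, 163 without e-cigarette 2, 4, 5 and 6 and 451 without air 4, 5 and 6. Leaving out a single library gave 50 to 562: 562 without air 2, 120 without air 4, 50 without air 5, 96 without air 6, and 177, 184, 108, 84, 58 and 70 without smoke 1 to 6. In e-cigarette versus air, 4406 became 67 with the thyroid score, 88 with 4 composition scores and 688 without e-cigarette 2, 4, 5 and 6 (3678 to 4425 without single libraries). In smoke versus e-cigarette, 2897 became 4, 0 and 147 (2113 to 3237). Of the 8 genes, those called in smoke versus air went from 0 to 1 with DESeq2 (Mt1) and to 1 without air 4, 5 and 6 (Mt3, -1.42). In e-cigarette versus air 4 became 1, 0 and 2 under the thyroid score, the 4 scores and without the 4 libraries, and in smoke versus e-cigarette 3 became 0, 0 and 1. With voom Mt3 was -0.93 in e-cigarette versus air, not called, and -0.05 in smoke versus air. Leaving out any 1 of the 18 libraries kept the member counts at 0, 4 and 3. The r of Mt1 and Mt2 was 0.87 with group means kept and 0.60 without the 2 libraries farthest in Mt1. With 4 composition scores Gstm1 in e-cigarette versus air turned to -0.10 and Slc30a5 in smoke versus e-cigarette to -0.0031. The cause of these shifts was not tested. Of the fold changes of the 8 genes under all settings, 729 shifted by less than 1 SD between replicates and 18 by more. That SD of log2 CPM within groups ran from 0.18 (Slc30a1) to 1.37 (Mt4). This measure leaves out lost calls and sign turns of genes not called. Of the fold changes of named pathway genes 675 kept their call, 191 lost it and 2 reversed. The measures differ, so the counts of members and pathway genes cannot be set against each other.

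The main fit did not pair libraries by replicate number. Same-numbered libraries of different groups had correlations of -0.50 to 0.22 over all tested genes. Tissue content also enters these values, so they cannot exclude a day or batch shared by number. With a replicate block the genes called were 39, 3836 and 2386 in smoke versus air, e-cigarette versus air and smoke versus e-cigarette, and the 8 genes kept counts of 0, 4 and 3. Depth limits Mt2 and Mt3 most, with as few as 13 and 17 reads in a library.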
